A study of Caenorhabditis elegans with 2 samples.

Results

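Binding of MEP-1 in Caenorhabditis elegans was examined at 10 genes for HP1 proteins, histone H3 lysine 9 methylation and related synMuv B functions: hpl-1, hpl-2, lin-61, lin-13, met-2, set-25, lin-65, lin-15B, lin-36 and tam-1. They were selected by name, with earlier results of these data known, and all 10 matched a gene among 19973 protein-coding genes. The data came from chromatin immunoprecipitation with sequencing against MEP-1 carrying GFP, in intact larvae of the first stage (L1). There was 1 group, with 2 biological replicates of the strain OP102, whose genotype is unc-119(tm4063) III; wgIs102. Per the labels the insertion targets mep-1, all animals carry the unc-119 mutation, and the larvae were of mixed sex. The labels do not state the promoter of the tagged gene, its copy number or whether untagged MEP-1 was also made. Because whole larvae were used, strong binding in a few cells and weak binding in many cannot be told apart.

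Synthetic multivulva (synMuv) genes keep epidermal cells from taking vulval fates, and a multivulva phenotype needs a mutation in each of 2 classes. Many class B products act on chromatin. HP1 proteins bind histone H3 methylated on lysine 9 (H3K9), the mark of heterochromatin, and the enzymes MET-2 and SET-25 place that mark. MEP-1 is a zinc finger protein that works with the Mi-2 homologue LET-418 and the deacetylase HDA-1 in the MEC complex, itself a class B complex that keeps germline genes off in somatic cells.

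The files give peak calls, each with the authors' signal value, a summit and a rank that follows from the signal. An optimal list of 4904 peaks is the authors' set after a reproducibility step, and its members are the top 4904 pooled peaks by signal. Of these peaks 4861 overlapped a call in both replicates, so presence in the optimal list does not by itself show a call in each. Relaxed lists hold 30000 peaks for the pooled replicates, 30000 for replicate 1 and 29149 for replicate 2, with weak calls included. Signal scales differ between lists, so ranks within each list are the values to compare, and rank 1 is the strongest. The lowest signal in the optimal list was 45.3. A gene was counted where a summit lay in its promoter window, from 1000 bp upstream to 200 bp downstream of an annotated 5' end. All positions are on ce11 (WBcel235), counted from 1, and negative distances are upstream.

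MEP-1 had an optimal peak in the promoter window of 4 of the 10 genes, lin-36, lin-13, lin-15B and lin-61, against 17.5% of all protein-coding genes. The other 6, among them both HP1 genes and both H3K9 methyltransferase genes, had none. In a list of 10 each gene is a large share, and no test was run on the count, since the genes were proposed with earlier results of these data known. No member had an optimal summit between its start and end, against 5.48% of all genes. In the relaxed pooled list 6 of 10 members had a summit in the window, against 42.3% of all genes, and 3 of 10 had one in the gene body, against 33.5%. Replicate 1 placed a summit in the window of 6 members, against 43.3% of all genes, and replicate 2 in that of 8, against 45.2%. Gene bodies held a summit at 2 members in replicate 1 (34.9% of all genes) and at 3 in replicate 2 (36.9%).

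**Figure D1:**
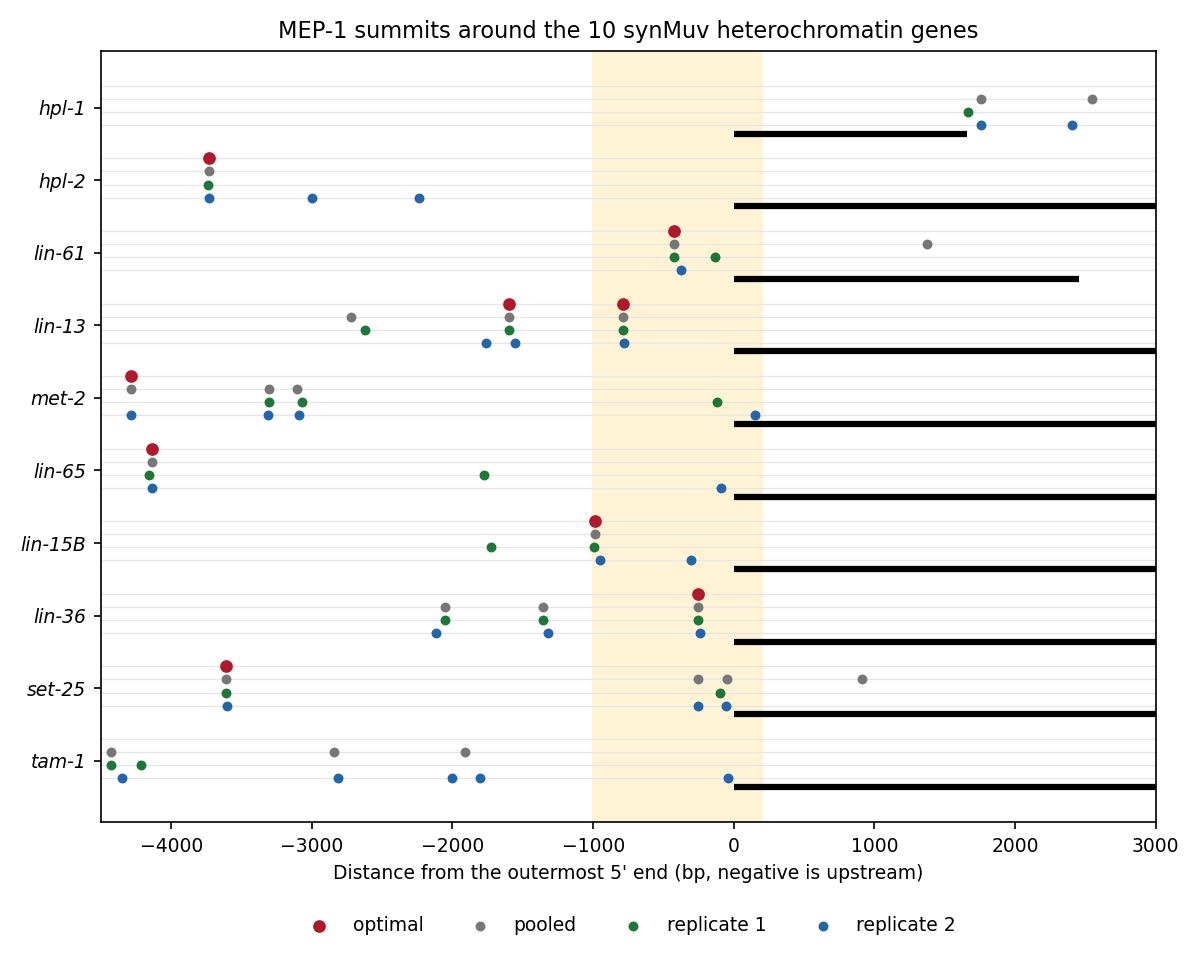
Summits from the 4 peak lists around each of the 10 genes, by distance in bp from the outermost 5' end, with the promoter window shaded and the gene drawn as a black bar, cut at the right edge. The optimal list has a summit in the shaded window at lin-61, lin-13, lin-15B and lin-36, and no summit of any list lies in the window of hpl-1 or hpl-2.

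The strongest peak of the group was at lin-36 (WBGene00003021), which encodes a THAP domain protein. It covered 8021041 to 8021217 on III, with signal 257 and rank 311 in the optimal list. The summit was between genes, 252 bp upstream of the lin-36 5' end. Replicate 1 ranked it 207 (signal 204) and replicate 2 ranked it 911 (signal 51.4). The replicates thus both placed it among their high calls but differed in how high. Over the 4861 optimal peaks with an overlapping call in both replicates, 1.71% had a rank ratio as large. The ncRNA gene F44B9.11, on the same strand as lin-36, began nearer to the summit, which was 18 bp upstream of its 5' end. A peak at that place cannot be given to lin-36 alone. No 5' end of another protein-coding gene was nearer, and the divergent neighbour F44B9.2 lies 1589 bp away with a pooled summit of its own, at rank 7502.

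lin-13 (WBGene00003002) encodes a zinc finger protein that forms a complex with HPL-2 and LIN-61. Its window peak, which covered 7710188 to 7710412 on III, had signal 229 and rank 406, with ranks of 387 in replicate 1 and 457 in replicate 2. The highest point stood 786 bp upstream, far out in the window. Among the 3491 genes with an optimal promoter peak, 7.79% had their strongest summit at least that far, and the median position was -226 bp. Both values cover only summits inside the window. No 5' end of any other gene was nearer. A further optimal peak lay outside the window, 1599 bp upstream of lin-13, at 7710915 to 7711264, with a signal of 115 and rank 1536 (1542 in replicate 1 and 1774 in replicate 2). Its summit was 1219 bp upstream of the divergent gene C03B8.3, so the space of 2817 bp between lin-13 and C03B8.3 held both peaks.

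The peak counted for lin-15B (WBGene00023497), a gene for another THAP domain protein, was at the outer edge of the window. It covered 15725056 to 15725262 on X, with signal 203 and rank 540 (493 in replicate 1 and 685 in replicate 2). The summit stood 990 bp upstream, and 0.372% of genes with an optimal promoter peak had their strongest summit as far. That share counts only summits inside the window, so it is small by construction for any summit near the outer edge. A window of 2000 bp upstream raised the genes with an optimal peak from 3491 to 4461. With a window of 500 bp upstream neither lin-15B nor lin-13 had a peak, which left 2 of 10 members with one, against 14.3% of all genes. The nearest annotated 5' end was still that of lin-15B, and the gene upstream, ZK662.5, ends 2271 bp away with no summit of any list in its window. Replicate 2 had a second, weaker call 301 bp upstream of lin-15B, at rank 4613 (signal 16.3), which replicate 1 and the pooled list lacked. lin-15A, the class A gene that shares an operon with lin-15B, had no summit in its window in any list.

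The sequences at these 3 summits are shown because they carry the strongest calls of the group. Each gives up to 100 bases centred on the summit, on the strand of the gene and outside annotated exons, from RefSeq's WBcel235 assembly. Capitals mark matches to any of 6 short words searched on either strand, each spelled out with its shares after the sequences. They cover chrIII:8021108-8021174, minus strand, for lin-36, chrIII:7710227-7710326, minus strand, for lin-13, and chrX:15725083-15725182, plus strand, for lin-15B.
lin-36: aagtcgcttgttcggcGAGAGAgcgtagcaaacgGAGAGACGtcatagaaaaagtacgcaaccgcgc
lin-13: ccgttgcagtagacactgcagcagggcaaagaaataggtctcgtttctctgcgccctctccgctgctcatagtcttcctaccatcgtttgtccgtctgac
lin-15B: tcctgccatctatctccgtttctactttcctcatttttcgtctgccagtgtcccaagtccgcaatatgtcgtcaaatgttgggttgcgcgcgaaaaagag

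The lin-36 stretch holds GAGAGA at 2 places, and the second overlaps a match to another word, CGTCTC, on the other strand. GAGAGA occurred within 50 bp of 29.8% of all 4904 optimal summits and in 8.77% of stretches of equal length just before the 5' ends of the 19973 genes. For CGTCTC the shares were 17.9% of summits and 3.84% of those stretches. CGTCTC and GACGCA were searched because they ranked highly at summits in an earlier report of these data. Their higher shares at the same summits are therefore no independent result. The other words, GAGAGA among them, were also chosen with earlier results of these data known, so their shares are not independent either. The shares were not corrected for the difference in GC content given below. No searched word was in the lin-13 or lin-15B stretch, which says only that these letters are not in these windows. Of the words absent from all 3 stretches, GACGCA was near 15.7% of summits (2.62% before 5' ends) and TTTGAA was near 16.1% (28.9%). The remaining pair were rarer. TTCGAA was near 5.34% of summits (6.09%), and GCGGGAA was near 2.08% (1%). GC content was 53.7% in the lin-36 stretch, 54.0% at lin-13 and 48.0% at lin-15B, each above the median of 45% at all optimal summits and of 32% before 5' ends. The 100 bases around the lin-61 summit, not printed, had 48.0% GC and held TTTGAA once and no other searched word.

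In the 300 bases from 250 bp before to 50 bp after the outermost 5' end, GACGCA was found in no member, against 8.78% of all promoters of that length. Likewise GCGGGAA was found in none, against 3.22% of all. Of the members, hpl-1 alone held CGTCTC, against 11.2% of all. TTTGAA was in 8 of 10, all but lin-36 and set-25, against 62.5% of all. TTCGAA was in 4 of 10, against 18.2% of all. GAGAGA was likewise in 4 of 10, against 21.8% of all, and tam-1 had the most, at 4 places. The optimal summits of lin-36, lin-61, lin-13 and lin-15B, the nearest 252 bp upstream, all lay outside these 300 bases. The counts thus describe promoters and not optimal MEP-1 summits, and lin-36 held neither CGTCTC nor GAGAGA here.

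lin-61 (WBGene00003041) encodes a protein with MBT repeats that binds methylated H3K9. Its optimal peak was the weakest of the group, covering 7251532 to 7251881 on I, with signal 59.9 and rank 3602. Replicate 1 ranked it 4348 (signal 36.2) and replicate 2 ranked it 3138 (signal 22.6). Both replicates therefore kept it within their first 4904 calls, in the lower part. The summit lay in the 658 bp between lin-61 and the divergent gene bub-1, which encodes a spindle checkpoint kinase. It was 425 bp upstream of lin-61 and 234 bp upstream of bub-1, so bub-1 was the nearer gene. In replicate 1 a weaker call stood closer to lin-61, 133 bp upstream, at rank 9604. A pooled summit in a coding exon of lin-61 had rank 29530, near the bottom of that list.

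**Figure D2:**
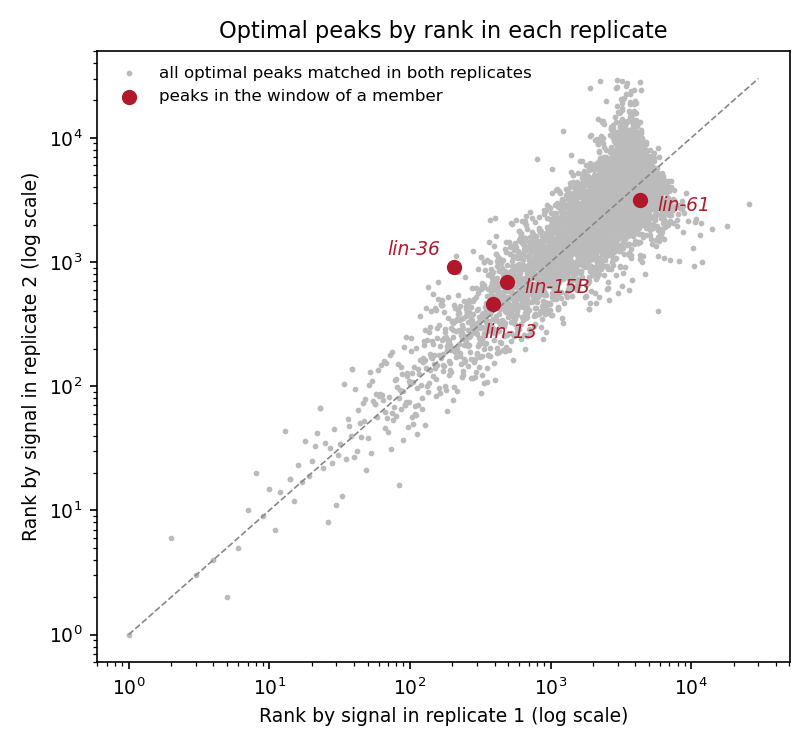
Rank by signal in replicate 1 (x axis) and replicate 2 (y axis), both on log scales, for the 4861 optimal peaks matched in both replicates (grey) and the 4 peaks in member windows (red). The dashed line marks equal ranks: lin-13, lin-15B and lin-61 sit close to it, and lin-36 lies above it, at rank 207 in replicate 1 and 911 in replicate 2.

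**Figure D3:**
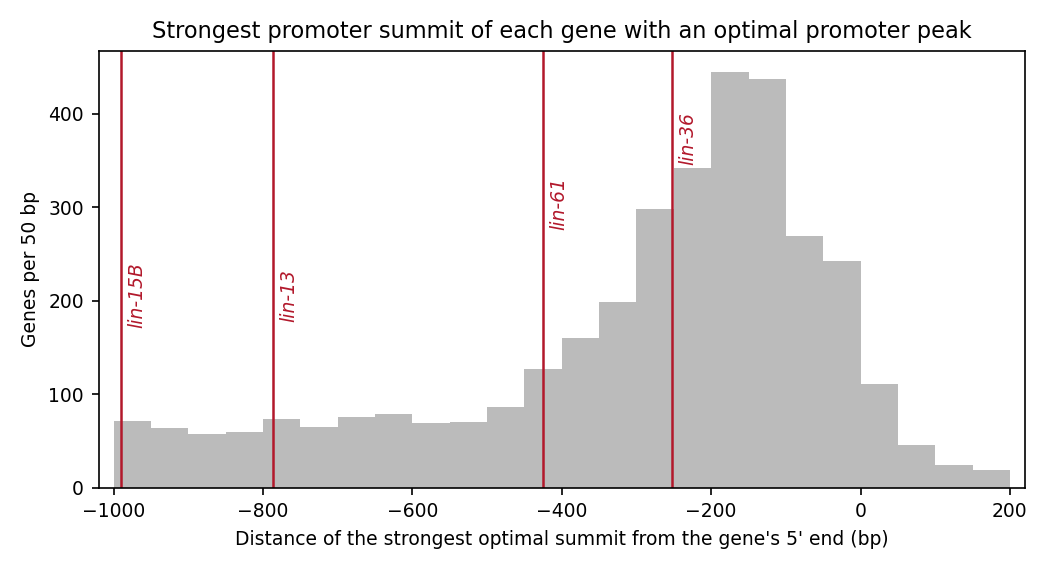
Histogram, in 50 bp steps, of the distance in bp between a gene's 5' end and its strongest optimal summit, for the 3491 genes with an optimal promoter peak. Summits outside the promoter window are not included. Red lines mark the 4 members: lin-36 at -252 bp is near the median of -226 bp, and lin-13 at -786 bp and lin-15B at -990 bp are in the flat upstream tail.

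The H3K9 methyltransferase genes had weak calls only. set-25 (WBGene00012802) encodes the enzyme for trimethylation of H3K9. A pooled summit lay 49 bp upstream of its 5' end, over 13292964 to 13293313 on III, at rank 6895 with signal 33.2, below the 45.3 at which the optimal list ends. Replicate 1 had it 96 bp upstream at rank 7339 (signal 23.4), and replicate 2 had it 52 bp upstream at rank 8290 (signal 9.56). The call at the set-25 start was therefore present in all 3 relaxed lists and in none of them within the first 4904. A second pooled summit 256 bp upstream had rank 9206, and one in a non-coding exon at the 3' end of the gene had rank 7702, nearer to the 5' ends of F56A8.8 and unc-64. A weaker pooled summit lay in an intron of set-25, 909 bp downstream of its 5' end, at rank 27049 (signal 12.0). The nearest optimal peak was 3610 bp upstream at 13296696 to 13296835 (signal 123, rank 1377), 153 bp in front of npp-18, a nucleoporin gene.

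met-2 (WBGene00019883) encodes the SETDB1 homologue for the first steps of H3K9 methylation. Replicate 1 had a summit 118 bp upstream at rank 16434 (signal 13.7), and replicate 2 had one 152 bp downstream at rank 12117 (signal 7.01). The peaks overlapped by 70 bp, with summits 270 bp apart, and the pooled list held no call there. A summit in both replicate windows but not in the pooled one was found at 247 genes (1.24%). The gene upstream, lmbr-1, runs on the same strand and ends 127 bp before met-2. Its window held a pooled summit at rank 7438 (signal 31.0), 262 bp upstream. The nearest optimal peak was 4282 bp upstream of met-2, at 8370843 to 8371192, with a signal of 53.0 and rank 4151. Replicate 2 ranked that peak 1259 and replicate 1 had no call that overlapped it.

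lin-65 (WBGene00022149) encodes a nuclear partner of MET-2 and is the longest member, at 11072 bp with 3 annotated 5' ends. Replicate 2 alone had a summit near the first 5' ends, 89 bp upstream, at rank 15836 (signal 5.72). The pooled call counted for lin-65 was 897 bp upstream of the internal 5' end, in an intron, at rank 29336 with a signal of 11.3, where that list ends at 11.0. Other pooled summits in its introns had ranks 16263, 24321 and 20989, so the whole gene held 4 weak pooled calls and no strong one. Replicate 1 had summits in the gene at ranks 12830 and 13000, and replicate 2 had a further one at rank 20901. The nearest optimal peak lay 4138 bp upstream, on I at 1751135 to 1751242 (signal 97.2, rank 1982). It was 136 bp in front of mppa-1 and 290 bp in front of Y71G12B.10, the same-strand neighbour that ends 918 bp before lin-65.

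Neither HP1 gene had a summit of any list in its window or gene body, as was the case for the window of 43.2% of all genes in the relaxed lists. hpl-2 (WBGene00001996) is a class B gene, while hpl-1 (WBGene00001995) is its paralogue. The nearest pooled summit to hpl-1 lay 107 bp past the 3' end of the gene, at 13246976 to 13247325 on X, and its signal was 45.0. Its rank of 4926 is 22 places past the end of the optimal list. That summit was 1275 bp downstream of the 5' end of K08H2.7, nearer than the 1761 bp from that of hpl-1. Replicate 1 ranked the call there 5918 and replicate 2 ranked it 4296. The nearest optimal peak to hpl-1 was 6240 bp downstream of its 5' end, in front of nhr-32.

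hpl-2 follows other genes on its own strand closely. It starts 93 bp after rnf-113, and rnf-113 adjoins K01G5.10. The only optimal peak within 5000 bp upstream of hpl-2 was 3731 bp away, at 10759071 to 10759412 on III, and had signal 408 and rank 75 (97 in replicate 1 and 47 in replicate 2). No optimal peak within 5000 bp upstream of another member had a higher signal. Its summit lay 739 bp upstream of K01G5.10 and 46 bp upstream of the divergent gene tasp-1, which was the nearer. rnf-113 had a call in replicate 2 alone, 126 bp upstream, at rank 8402. Whether these genes share a transcript was not examined.

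tam-1 (WBGene00006523) encodes a RING finger and B-box protein needed for expression from repetitive transgenes. A summit 42 bp upstream was called in replicate 2 alone, at rank 7330 with a signal of 10.7. Calls in replicate 2 alone were found in the windows of 1944 genes (9.73%). The nearest optimal peak to tam-1 was 86467 bp away, and no optimal summit lay within 10 kb of its 5' end, against a median of 1 over all genes. Every other member had from 1 to 3. What share of all genes had none in that span was not computed, so tam-1 is not shown to be unusual. Pooled summits within 10 kb numbered from 1 at lin-15B to 10 at set-25, against a median of 5. At lin-15B the single pooled summit in that span was the strong peak itself.

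Other synMuv and H3K9 genes from 6 further lists were set beside the members. A promoter peak in the optimal list was found at 21 of 33 of them (63.6%), against 4 of the 10 members and 17.5% of all genes. The further lists too were chosen with earlier results of these data known, so their shares are no independent result. DREAM genes, for the repressor complex built on the retinoblastoma homologue LIN-35, had an optimal promoter peak at 7 of 8, and lin-37 was without. The highest of them were lin-54 (rank 24), lin-53 (101) and lin-9 (131). The rank 24 summit was nearer the 5' end of rpl-12 (-30 bp) than that of lin-54 (-363 bp). The rank 101 summit was nearer that of nra-2 (-219 bp) than that of lin-53 (-248 bp). MEC and NuRD genes had an optimal promoter peak at 4 of 5, at dcp-66 (920), lin-40 (1065), mep-1 (1718) and let-418 (3888). The insertion in this strain targets mep-1, so the mep-1 call cannot be assigned to the native gene alone. In the let-418 window replicate 2 had a summit, at rank 3916, and replicate 1 had none. hda-1 had a pooled call at rank 7177. Genes for H3K9 partners and the nuclear periphery had one at 6 of 9. mrg-1, for a chromodomain protein, led them at rank 562, followed by the genes lem-2 (1764) and emr-1 (1956) for inner nuclear membrane proteins. The rank 562 summit was nearer the 5' end of spcs-2 (-135 bp) than that of mrg-1 (-240 bp). arle-14, for a partner of MET-2 and LIN-65, had rank 4051, while cec-4, for the protein that anchors H3K9-methylated chromatin at the nuclear edge, had a pooled call at rank 5466 and set-32 had no call.

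The remaining lists were small, and their counts stand beside 17.5% of all genes with an optimal promoter peak. H3K9 demethylase genes had an optimal peak at 1 of 3, jmjd-1.2 (rank 1882), with none at spr-5 or jmjd-2. The rank 1882 summit was nearer the 5' end of F29B9.11 (-244 bp) than that of jmjd-1.2 (-546 bp). Class A genes had an optimal peak at 1 of 4, lin-38 (2167), with none at lin-15A or lin-8. Class C genes, for a Tip60-like acetyltransferase complex, had one at 2 of 4, epc-1 (479) and mys-1 (2252), with none at trr-1 or ssl-1. The differences between lists were not tested, and windows shared with a neighbouring gene were counted for both genes.

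**Figure D4:**
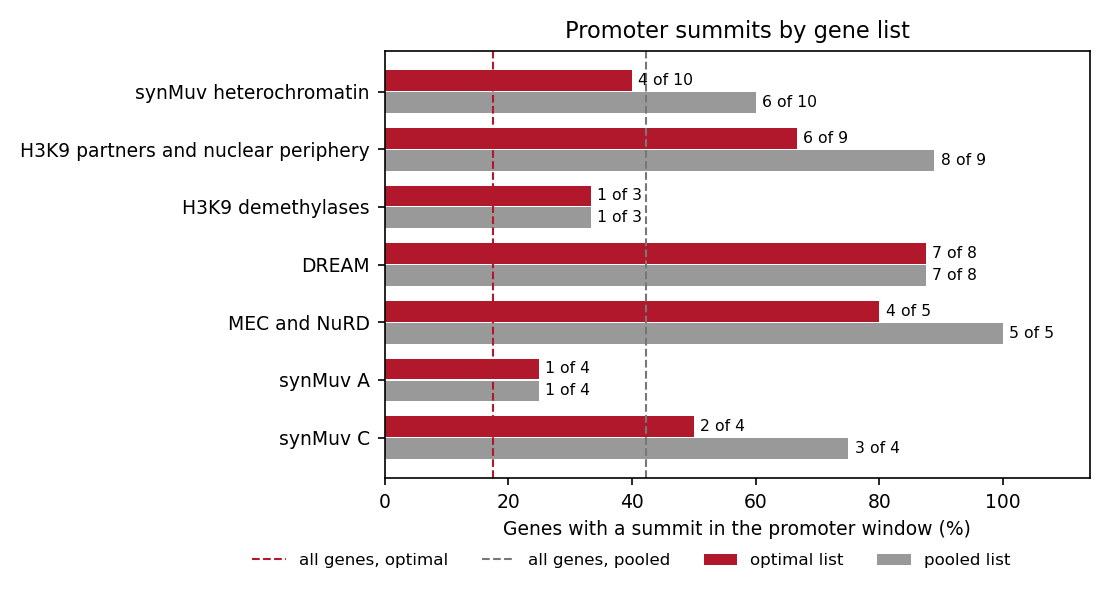
Percent of genes in each list with a summit in the promoter window, in the optimal list (red bars) and the pooled list (grey bars), with the count beside each bar. Dashed lines give the shares of all protein-coding genes, 17.5% and 42.3%, and the members stand at 4 of 10 and 6 of 10.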

How the data were processed

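Peak lists were deposited by the authors in narrowPeak form for each replicate, for the pooled replicates and for an optimal set after an irreproducible discovery rate (IDR) step, per the deposited file lists. The signal per peak is the authors' value, as deposited, on a scale not given in the sources used here. The −log10 q value is also the authors', as deposited, and served only to describe the lists. Per those file lists the calling used a control, whose reads were not analysed here. Fragments were 150 to 350 bp, per the labels. Which aligner and peak caller were used, and at what IDR threshold, is not given in the sources used here. With no read counts in the lists, depth is unknown and no interval is given. Replicates may share more than the labels say, and no p-values were computed.

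Peaks were ranked by signal within each list, and all 4904 optimal peaks were checked to be the 4904 highest-signal pooled peaks. The Ensembl annotation (release 115) gave 19973 protein-coding genes, mitochondrial genes left out, and windows were set around the 5' ends of their protein-coding transcripts. Peaks on ce10 were not used, since the annotation is on ce11. RefSeq's assembly of ce11 supplied the sequences. Python 3.11.15, numpy 2.4.6, pandas 2.3.3 and matplotlib 3.10.9 were used. The rule that ties summits to genes was checked on planted summits.

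The members, the 6 further lists and the 6 words were chosen with earlier results of these data known. Named genes are all members, genes with a 5' end nearer a member's summit, and up to 3 with and 2 without an optimal peak per further list. Neighbours in front of members, K08H2.7, arle-14, let-418 and the ncRNA gene F44B9.11 were named after their values were seen. So were rpl-12, nra-2, spcs-2 and F29B9.11, neighbours of genes in the further lists. Alternatives were a stricter peak threshold, the pooled list, each replicate alone, other windows and overlap rules, outermost 5' ends and nearest genes.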

Additional observations from a re-analysis of the deposited data

How the results depend on the processing

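With as many top peaks of 1 replicate as the optimal list holds, 4 members had a promoter peak without replicate 1 and without replicate 2, and they were the same genes, lin-61, lin-13, lin-15B and lin-36. The share of all genes was 18% without replicate 1 and 17.4% without replicate 2. A window of 500 bp upstream left 2 members, lin-61 and lin-36, against 14.3% of all genes. The higher-signal 50% of peaks left 3, without lin-61, against 11.4% of all genes, and so did counting each summit for the nearest 5' end alone, against 13.3%. Pooled peaks of any rank gave 6, against 42.3%. The count was 4 with a window of 2000 bp (22.3% of all genes), with any base of the peak (18.4%) and with the outermost 5' end (16.3%). In gene bodies the count of members was 3 with pooled peaks of any rank, lin-61, lin-65 and set-25, against 33.5% of all genes. It was 0 under the 5 other alternatives. The shares of all genes were 2.58% with the higher-signal 50%, 5.41% without replicate 1 and 5.54% without replicate 2. They were 10.4% with any base of the peak and 4.43% without the first 200 bp of the gene. At such shares a count of 0 in 10 genes says little about the members. No paired analysis was possible because there is 1 group. Depth is unknown, so a gene without a call is not shown to lack binding, and weak ranks such as 29336 lie at the end of a list with a fixed number of peaks.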

Other observations

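Of the further genes, trr-1 (class C) had a summit in replicate 2 at rank 242, with a signal of 89.1 and 234 bp upstream, while replicate 1 and the pooled list had none in its window.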
